A study of Schizosaccharomyces pombe with 4 samples.

Results

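The right arm of chromosome 2 of fission yeast (Schizosaccharomyces pombe), away from its centromere, its mating-type region and its telomere, was read by 8341 of the 41551 probes of a tiling array. A probe belonged to the arm interior if its name placed it on chromosome 2 between the array's positions 1750201 and 2049901 (977 probes) or between 2200201 and 4410301 (7364 probes). The stretch between these 2 segments, which surrounds the mating-type region, was not part of it. Neighbouring probes lay 300 bp apart at the median, and 3 gaps were longer than 1000 bp, the longest being 2700 bp after position 1966501. Averaged over 2 kb, the probes gave 1253 of the 6234 windows tested on the whole array (20.1%). Positions are those of the array design on chromosome 2, counted from 1. Its genome build was not given in the sources used here, so no gene was placed on the arm and no sequence is shown.

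The data came from 4 two-colour arrays, 2 labelled wild type and 2 labelled fft3Δ, with an array of each genotype in a series 1 and a series 2. Every culture had the cdc25-22 mutation, which blocks entry into mitosis when cells are warmed. Each also had a thymidine kinase module (Pnmt1-TK) and a human nucleoside transporter module (Padh1-hENT). Together these modules let cells take up the thymidine analogue bromodeoxyuridine (BrdU) and build it into DNA. The labelled fft3Δ cultures additionally lacked, by their label, Fft3, a Snf2-type ATPase that remodels chromatin. In both groups cells were grown at 26 °C in minimal medium, arrested at 37 °C for 4 h and 15 min, returned to 26 °C with 10 mM hydroxyurea and 200 µM BrdU, collected at 120 min and fixed with 0.1% sodium azide. DNA sheared to 500 to 1000 bp was precipitated with a BrdU antibody, and on every array it was read in the Cy5 channel and unprecipitated input DNA in the Cy3 channel. The measure throughout is log2 of the Cy5 over the Cy3 processed signal, set to a median of 0 on each array, so that 0 is the median probe of the genome and 1 is a doubling of BrdU-labelled DNA relative to input. The labels do not say that series 1 and 2 were separate cultures, so p-values measure the spread between these arrays, which may be technical.

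Hydroxyurea blocks the enzyme that makes deoxynucleotides, so replication forks slow soon after they leave an origin. BrdU given in its presence marks DNA around origins that fire early and efficiently, while origins that fire late are held back by the replication checkpoint and label weakly. Fission yeast origins are stretches of AT-rich DNA, mostly between genes, without a fixed consensus sequence, and they differ widely in efficiency and timing. Cells were collected at a single time, so timing itself was not measured: stretches of the arm are called high or low in BrdU. In such bulk samples fewer labelled cells and less BrdU in each cell cannot be told apart.

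All 8341 arm probes were well above background in both channels on every array, none was saturated, and 1 to 44 of them were left out on an array because the spot was not uniform. Wild-type array 2 stood apart in its input: over arm windows the input signal had an SD of 0.29 there, while the other 3 arrays had 0.53 to 0.55. Its input correlated with theirs at r = 0.67 to 0.71 over the 1253 windows, against 0.96 to 0.98 among them. The log2 ratios of the arm correlated at r = 0.82 to 0.97 between arrays, with the pairs that include wild-type array 2 at 0.82 to 0.90. These correlations describe windows that share probes and base composition. The series is also the scanner, since the arrays of series 1 were read on a single scanner and those of series 2 on another. Differences are therefore given within each series as well, but these can still hold technical differences between the genotypes. The 4 arrays lay on 3 slides, so not every series had both genotypes on a single slide. In series 2 the extraction software also differed in version between the genotypes. The part of slide and software in the differences was not tested. Loss of fft3, a gene of 3611 bp on chromosome 1 in the reference annotation that about 12 probes would span, was not seen in the input: over every run of 12 probes on the array, the lowest difference between the genotypes was -0.45 in series 1 and -1.38 in series 2, and the lowest reached in both was -0.28. The arrays are therefore called labelled fft3Δ.

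The arm as a whole was low in BrdU, and mostly so in its middle and outer portions. Its mean window level was -0.22 on both wild-type arrays and -0.20 and -0.23 on labelled fft3Δ arrays 1 and 2, which put the arm below the genome's median probe on all 4 arrays. The windows of the arm had an SD of 0.57 and 0.49 on the wild-type arrays and 0.56 and 0.53 on the labelled fft3Δ arrays. Windows below -1, that is under 50% of the median ratio, made up 9.66% and 6.15% of the arm on the wild-type arrays and 9.5% and 8.62% on the labelled fft3Δ arrays. Windows above 0.5 made up 9.42% and 5.91% on the wild-type arrays and 10.9% and 5.99% on the labelled fft3Δ arrays. Both shares were lowest on wild-type array 2, whose input varied least. Probes whose names end in R (4140) and probes with no letter (4134) had mean levels within 0.01 of each other on every array, for example -0.23 and -0.23 on wild-type array 1.

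Along the arm the level fell from the segment next to the centromere to the middle, rose again, and was lowest at the outer end. The centromere-side segment from 1750001 had a level of 0.02 ± 0.04 (mean ± SD over 4 arrays), 9 of the arm's 27 peaks, and 24.3% of its windows above 0.5. The 500 kb section from 2200001 averaged -0.22 ± 0.02 with 6 peaks, and the section from 2700001 averaged -0.35 ± 0.02 with 2 peaks and 11.6% of windows below -1. Levels were -0.21 ± 0.02 from 3200001, with 3 peaks, and -0.10 ± 0.02 from 3700001, with 7 peaks. The outermost section, from 4200001 to the end, averaged -0.50 ± 0.04, held no peak and no window above 0.5, and had 19.0% of its windows below -1. These sections were cut at fixed positions and differ in length, so their peak counts do not compare directly. The first held 148 windows, the last 105 and those between 250 each. Their order in level was the same on each array except that the sections from 2200001 and 3200001 swapped places between arrays.

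Blocks of 50 kb differed widely in level along the arm, without a regular pattern. From 2750001 to 3450000 every block had a negative mean over the 4 arrays. The same block was highest, and the same block lowest, on each of the 4 arrays. The highest of the 50 blocks was the first, from 1750001 to 1800000, at 0.44 and 0.42 on the wild-type arrays and 0.47 and 0.45 on the labelled fft3Δ arrays. Next came the block from 3800001, at 0.42 and 0.34 on the wild-type arrays and 0.46 and 0.38 on the labelled fft3Δ arrays. The blocks from 3900001, 3600001 and 2200001 followed, with means over the 4 arrays of 0.30 ± 0.06, 0.28 ± 0.01 and 0.22 ± 0.05. The blocks from 3900001 and 3600001 do not separate from each other beyond their spread, and the block from 2200001 was below both on each of the 4 arrays. It was at -0.01 when arrays were centred on the mode of their ratios instead of the median.

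At the other end, the block from 4250001 was the lowest, at -1.07 and -0.99 on the wild-type arrays and -1.02 and -1.08 on the labelled fft3Δ arrays. The block from 3000001 had -0.92 and -0.82 on the wild-type arrays and -0.88 and -0.94 on the labelled fft3Δ arrays. These 2 blocks did not overlap each other on any array, and both lay below the next lowest, from 2850001 (-0.65 ± 0.05). The blocks from 4300001 (-0.61 ± 0.02) and 3350001 (-0.59 ± 0.06) completed the lowest 5 and were not separable from it by their spread.

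**Figure D1:**
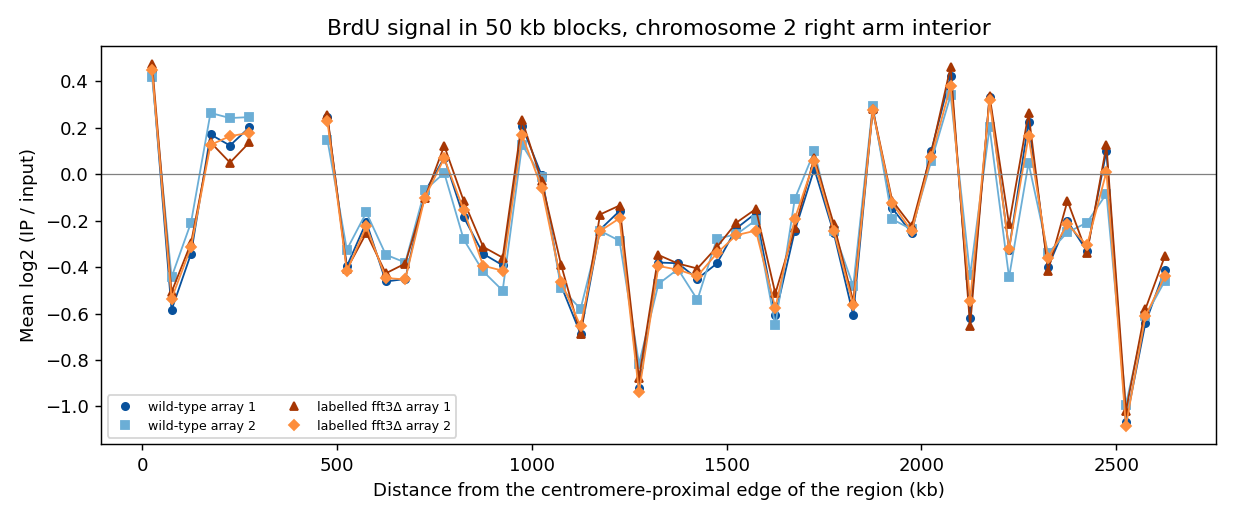
Mean log2 (IP / input) of each 50 kb block (vertical axis) against distance from the centromere-proximal edge of the arm interior in kb, one line per array. The 4 lines run together, from 0.42 to 0.47 in the first block down to between -1.08 and -0.99 in the lowest one, and the break is the stretch around the mating-type region.

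Runs of windows gave the high and low stretches at finer scale. A run was called high or low where the level smoothed over 11 windows stayed among the top or bottom 20 percent of all windows of the genome (above 0.41 or below -0.51) for at least 5 windows. The arm held 6 high runs covering 140 kb (5.59% of it) and 22 low runs covering 622 kb (24.8%). High runs were 12 to 30 kb long, and low runs were 10 to 92 kb long. The top and bottom 20 percent were then set anew on each array. Of the arm's 74 windows above the high limit, in a run or not, nearly all stayed high on 3 arrays (97.3% to 100%), but 68.9% on wild-type array 2. Of the 320 windows below the low limit, each array kept 90.9% to 95.3%.

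The 5 longest high runs were from 1750001 to 1780000 (30 kb, level 0.61 ± 0.02), 1936001 to 1966000 (30 kb, 0.69 ± 0.05), 3810001 to 3836000 (26 kb, 0.52 ± 0.05), 2022001 to 2046000 (24 kb, 0.50 ± 0.02) and 3918001 to 3936000 (18 kb, 0.46 ± 0.07). Of these, 3 lay in the centromere-side segment, which is only 300 kb long. The run from 1936001 was the highest, at 0.75 and 0.63 on the wild-type arrays and 0.69 and 0.68 on the labelled fft3Δ arrays. In the Cy5 channel alone the high runs lay 0.42 to 0.92 above the array median, while their input lay between -0.15 and 0.25.

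The longest low run extended over 92 kb, from 4250001 to 4342000, at -0.88 and -0.84 on the wild-type arrays and -0.83 and -0.88 on the labelled fft3Δ arrays. The other long ones were 2818001 to 2886000 (68 kb, -0.79 ± 0.05), 2384001 to 2428000 (44 kb, -0.88 ± 0.07), 1822001 to 1864000 (42 kb, -0.97 ± 0.11) and 3372001 to 3408000 (36 kb, -0.997 ± 0.0685). A shorter run, from 2998001 to 3032000, had the lowest mean of all, -1.19 ± 0.11; it was singled out after its values were seen. It holds the lowest window of the arm, from 3010001, at -2.21 and -1.56 on the wild-type arrays and -2.23 and -2.24 on the labelled fft3Δ arrays. The low runs were low in Cy5 alone, at -1.26 to -0.62, with input between -0.46 and 0.01.

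Peaks that could mark single origins were few on the arm: 27 of the 300 on the array (9.0%), although the arm holds 20.1% of the windows. A peak was the highest probe within 5 kb on either side, after smoothing of the 4-array mean over 500 bp. It had to exceed 0.744, the median plus 1 SD. This SD (0.728) is the root mean square distance from the median of all smoothed values below it, low stretches included. The lowest peak inside this limit, at 2531401, had a smoothed height of 0.751, and the highest maximum outside it, at 2900101, reached 0.741. In all, 126 local maxima of the arm lay above the genome's median. The peaks are chosen on the mean of both genotypes, so their heights are a description.

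The tallest peak stood at 2031601, with a smoothed height of 1.31. The mean of the probes within 1 kb of it, used as a peak's value from here on, was 1.03 and 0.95 on the wild-type arrays and 0.85 and 0.93 on the labelled fft3Δ arrays. The peak at 2439001 (height 1.23) had values of 1.14 and 1.30 on the wild-type arrays and 0.69 and 1.04 on the labelled fft3Δ arrays. It ranked second and first among the 27 on the wild-type arrays and fifteenth and first on the labelled fft3Δ arrays. The window under it, from 2438001, was the highest of the arm. It stands directly after the low run that ends at 2428000.

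The remaining tall peaks lay mostly on the centromere side. At 1756501 (height 1.20) the values were 1.09 and 0.99 on the wild-type arrays and 0.79 and 1.02 on the labelled fft3Δ arrays. At 1954501 (height 1.15) they were 0.88 and 0.89 against 1.13 and 1.02, in the same order of groups. The peaks at 2021701 (1.05) and 1777801 (0.98) completed the 6 tallest, none of which lies farther out than 2439001. Beyond that position, the tallest were at 2802901 (height 0.98, mean value 0.73 ± 0.10) and 3811801 (height 0.94), the latter level with the peak at 3769801 (height 0.94). The peak at 3811801 rested on wild-type array 1, at 1.15, against 0.73 on wild-type array 2 and 0.74 and 0.62 on the labelled fft3Δ arrays.

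Peaks carried clearly more input signal than the median probe on 3 arrays and about as much on wild-type array 2. Over the 27 peaks the mean input was 0.66 and 0.03 on the wild-type arrays and 0.72 and 0.66 on the labelled fft3Δ arrays, relative to each array's median. Wild-type array 2 is again the one apart, also in Cy5, where the means were 1.52 and 0.77 on the wild-type arrays and 1.51 and 1.40 on the labelled fft3Δ arrays. The peaks at 1815601 and 1969201 had input of 3.13 to 3.59 on the other 3 arrays, and 1.35 and 1.30 on wild-type array 2, and rested on only 4 probes and 1 probe. The other 25 peaks rested on 6 or 7 probes each. Over these 25 the mean input was 0.43 and -0.07 on the wild-type arrays and 0.50 and 0.45 on the labelled fft3Δ arrays.

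**Figure D2:**
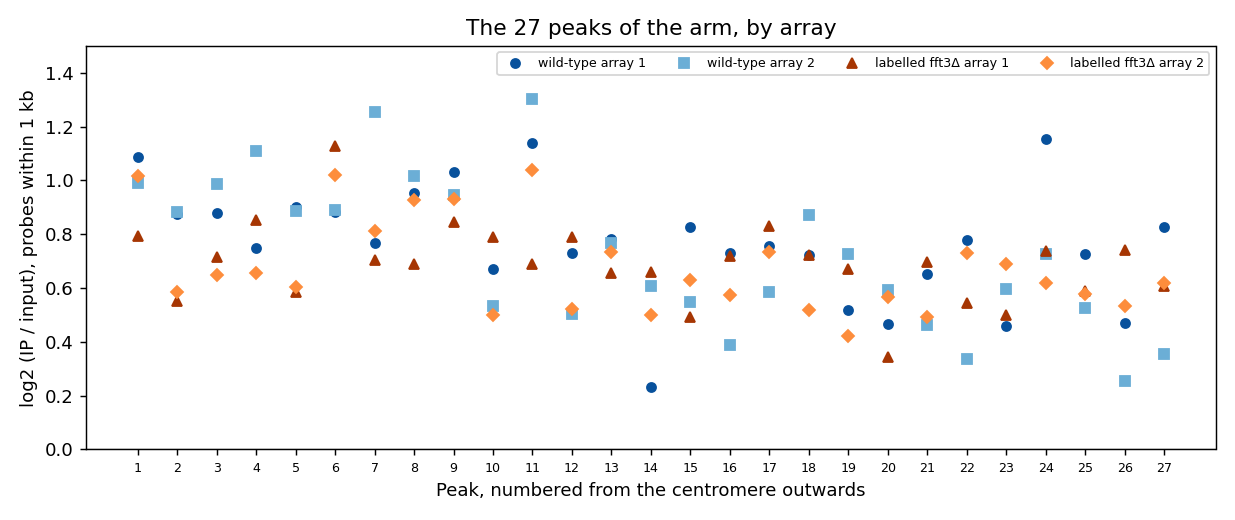
Value of each of the 27 arm peaks (mean log2 (IP / input) of the probes within 1 kb, vertical axis), numbered from the centromere outwards (horizontal axis), one symbol per array. Of the 8 tallest, 6 are among the first 11, and arrays can differ widely at a single peak, as at peak 11 (2439001), which spans 0.69 to 1.30.

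The peaks were spread unevenly. The median distance between neighbours was 24 kb, but 6 distances exceeded 100 kb, without counting the one across the mating-type stretch. The longest stretch without a peak ran for 627 kb, from 2802901 to 3429901. It was not flat: it held 21 lesser maxima above the genome's median, of which the tallest, at 2900101, had values of 0.75 and 0.40 on the wild-type arrays and 0.60 and 0.64 on the labelled fft3Δ arrays. Past the last peak, at 3942601, a further 467.9 kb held no peak to the end of the arm interior. That stretch also had 21 lesser maxima, the tallest at 4134301 with a smoothed height of 0.61.

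Of the 39 steps on the array, 13 (33.3%) lay on the arm, which holds 20.1% of the windows. With means over 10 windows on each side in place of 5 it held 11 of 47 (23.4%). A step was a place where the mean of 5 windows on one side differed from the mean of the 5 on the other by at least 1, and by more than anywhere within 10 kb. The smallest one inside this limit, at 2310001, measured 1.02, and the largest outside it, at 3020001, measured 0.995. Of the 13, 7 went down and 6 went up, reading away from the centromere.

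The steepest step, except with normexp background correction (2812001) or loess (3002001), was downward, at 1818001, where the level dropped by 1.53 and 1.32 on the wild-type arrays and by 1.51 and 1.33 on the labelled fft3Δ arrays. It leads from 0.52 to -0.90 and lies just outward of the peak at 1815601. That peak falls within the 5 windows of the step's high side and rested on only 4 probes. Its input was 3.44 and 1.35 on the wild-type arrays and 3.36 and 3.13 on the labelled fft3Δ arrays. The part of these probes in the size and rank of the step was not tested. Next among the downward steps were 2812001 (-1.26 ± 0.11), just outward of the peak at 2802901, then 3002001 (-1.22 ± 0.22) and 3372001 (-1.19 ± 0.12). The step at 3002001 was -1.42 and -0.90 on the wild-type arrays and -1.24 and -1.32 on the labelled fft3Δ arrays, so wild-type array 2 was the shallow one.

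Upward, the steepest was at 2430001, at 1.28 and 0.95 on the wild-type arrays and 1.36 and 1.13 on the labelled fft3Δ arrays. It closes the low run that begins at 2384001 and leads to the peak at 2439001. The steps at 3584001 (1.07 ± 0.09), 3390001 (1.06 ± 0.18) and 2658001 (1.02 ± 0.21) followed and did not separate from each other beyond their spread. With loess within arrays the 8 named steps measured 0.72 to 0.99, below the limit of 1. Some steps bound short low stretches: the pairs at 2912001 and 2930001, and at 3570001 and 3584001, are each a drop followed by a return within 18 kb. The drop at 3372001, from 0.02 to -1.17, was followed at 3390001 by a rise to only -0.55, within the low run that ends at 3408000. On average over the 13 steps, turned so that the low side comes first, the level went from -1.41 ± 0.13 at 9 kb before the step to -0.80 ± 0.06 at 1 kb before, -0.34 ± 0.06 at 1 kb after and 0.16 ± 0.09 at 9 kb after. The rise is fixed by how the steps were chosen. Its lowest and highest points lay 18 kb apart on each of the 4 arrays.

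**Figure D3:**
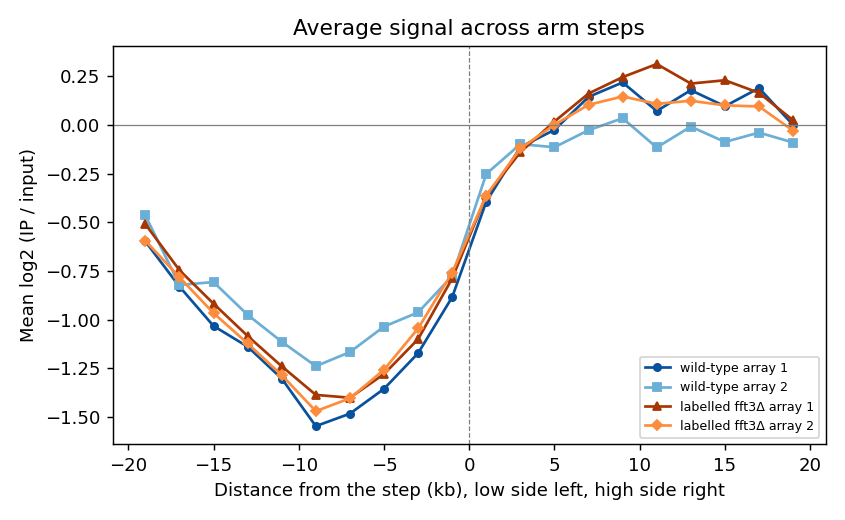
Mean log2 (IP / input) over the 13 steps (vertical axis) against distance from the step in kb, low side to the left, one line per array. All 4 arrays reach their lowest point 7 to 9 kb before the step, at -1.55 to -1.24, and wild-type array 2 stays flattest on both sides.

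The genotypes were then compared, to ask whether the arm's replication profile differs without Fft3. No feature of the arm passed the test. On simulated data the window fit recovered only 5 of 50 changes of 0.5, so differences of that size are mostly missed. In limma, fitted over the whole array with Benjamini-Hochberg adjustment at 0.05, 0 of 1253 windows passed (background 0% of 6234), as did 0 of 50 blocks (0% of 251), 0 of 27 peaks (0% of 300) and 0 of 13 steps (0% of 39). The smallest adjusted p on the arm was 0.883 for windows, 0.894 for blocks, 0.468 for peaks and 0.962 for steps. At an unadjusted p under 0.05, 25 windows were higher in the labelled fft3Δ arrays (2.0%, background 3.64%) and 10 were lower (0.798%, background 1.2%). Among peaks, 0 were higher (background 2.67%) and 3 lower (11.1%, background 7.33%), and 0 blocks (background 1.99% higher and 0.398% lower) and 0 steps (background 0%) passed at that level. The groups were apart at 0 steps of the arm in either direction (background 2.56% higher and 2.56% lower).

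Between the groups the arm's mean level differed by 0.01 (series 1, 0.03 and series 2, -0.01; exact permutation test over 4 arrays, two-sided, p = 1). Its window SD differed by 0.01, with -0.01 and 0.04 within the series (exact permutation test, p = 1). With 2 arrays against 2 this test cannot go below 0.33. Windows differed by -0.63 to 0.65, with a median of 0.01 on the arm and -0.02 over the array. Both series agreed on a higher value in 382 windows and on a lower value in 343, and went opposite ways in 527.

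Blocks, each a mean of up to 25 windows, differed by -0.09 to 0.11, and peaks, each of at most 7 probes, by -0.36 to 0.28. The largest block difference was at 3950001, at -0.32 and -0.44 on the wild-type arrays and -0.22 and -0.32 on the labelled fft3Δ arrays. In the other direction, the block from 1900001 was at 0.17 and 0.26 on the wild-type arrays and 0.14 and 0.13 on the labelled fft3Δ arrays, a difference of -0.09. Of the 50 blocks, 9 were higher in both labelled fft3Δ arrays than in either wild-type array (18.0%, background 10.8%) and 6 were lower in both (12%, background 18.3%). Among low runs, 1 differed by over 0.2: the run from 2282001 to 2306000 was at -0.88 and -0.57 on the wild-type arrays and -0.94 and -0.93 on the labelled fft3Δ arrays, a gap set mostly by wild-type array 2. It was named after its value was seen.

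By moderated t, the 3 windows most clearly higher and the 3 most clearly lower with one sign in both series were the following, none of them past adjustment (adjusted p = 0.883 for each in limma). The window from 1806001 was at 0.04 and 0.02 on the wild-type arrays and 0.54 and 0.42 on the labelled fft3Δ arrays. Similarly, the one from 3816001, beside the peak at 3811801, was at 0.33 and 0.17 against 0.74 and 0.65. The window from 2444001, between the peaks at 2439001 and 2446801, was at 0.20 and -0.07 against 0.70 and 0.46. The groups did not overlap at any of the 3, where Cy5 was higher and input lower in both series.

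Lower in the labelled fft3Δ arrays was the window from 2300001, within the run just described, at -0.61 and -0.16 on the wild-type arrays and -1.16 and -0.88 on the labelled fft3Δ arrays. Another, from 3322001, was at -0.20 and -0.04 against -0.56 and -0.47. The third, from 1768001, under the peak at 1768801, was at 0.96 and 1.04 against 0.61 and 0.64. In that window the input of series 2 was higher by 0.68 in labelled fft3Δ and Cy5 by 0.34, while in series 1 input was higher by 0.10 and Cy5 differed by -0.24. The part of the input in this difference was not tested. Over the arm, 216 windows were higher in both labelled fft3Δ arrays (17.2%, background 15.1%) and 198 lower in both (15.8%, background 19.5%).

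With the scanner, and so the series, as a block in the fit, 5 windows of the arm passed (0.399%, background 1.83%). Of these, 4 were higher (0.319%, background 1.7%) and 1 was lower (0.0798%, background 0.128%). Blocks, peaks and steps of the arm again gave 0, while over the array 5 of 251 blocks, 6 of 300 peaks and 0 of 39 steps passed. The lower one was the window from 2300001 (difference -0.63, adjusted p = 0.0135 in the blocked limma fit). The higher ones were those from 2444001 (0.51, adjusted p = 0.0413), 2594001 (0.55, adjusted p = 0.0304), 2800001 (0.53, adjusted p = 0.0397) and 3976001 (0.65, adjusted p = 0.0141), again from the blocked limma fit. The last of these was at -0.47 and -1.11 on the wild-type arrays and -0.03 and -0.25 on the labelled fft3Δ arrays, with an input difference of -0.95 in series 2. Without wild-type array 1, it differed by 0.97. That fit compares the labelled fft3Δ arrays with wild-type array 2 alone and assumes that the lone array varies as they do.

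**Figure D4:**
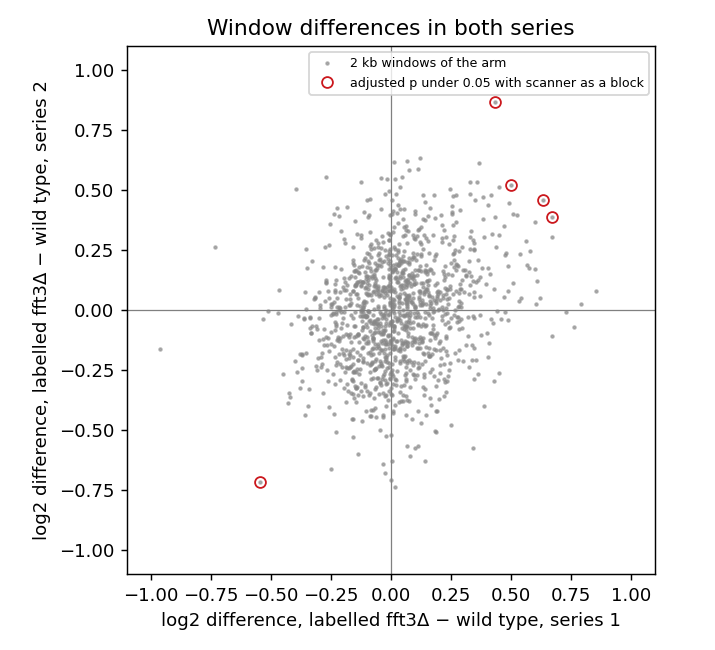
Difference of each 2 kb window of the arm between the labelled fft3Δ and the wild-type array, series 1 on the horizontal and series 2 on the vertical axis, both in log2 (IP / input). The cloud is centred near 0 on both axes, and the 5 circled windows, which passed with scanner as a block, lie in the quadrants where both series agree.

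Peaks had lower values at their apex in the labelled fft3Δ arrays, although 2 arrays a group are too few to pass the exact test. The median peak value was 0.77 and 0.73 on the wild-type arrays and 0.70 and 0.62 on the labelled fft3Δ arrays. The groups, at 0.75 ± 0.03 and 0.66 ± 0.06 (SD, n = 2 each), did not overlap, and their difference of -0.09 was -0.07 in the first series and -0.11 in the second (exact permutation test, two-sided, p = 0.33, the smallest it can give). The sign turned to 0.03 when the value of a peak was taken over 2 kb on each side, and to 0.36 in Cy5 alone, while the difference was -0.34 with normexp background correction and -0.03 with loess. Of the 27 peaks, 16 were lower and 11 higher. The median difference was -0.08 on the arm and also -0.08 over all 300 peaks of the array.

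The peaks with the largest moderated t of one sign in both series were all short of the test. The peak at 3918601 was at 0.47 and 0.25 on the wild-type arrays and 0.74 and 0.53 on the labelled fft3Δ arrays (difference 0.28, SE 0.14, limma adjusted p = 0.525). Those at 1954501 and 2802901, also higher, differed by 0.19 and 0.11, and both turned sign with another background correction. Lower was the peak at 2439001, by -0.36 (SE 0.15, limma adjusted p = 0.468). The peak at 1768801 was at 0.88 and 0.88 on the wild-type arrays and 0.55 and 0.58 on the labelled fft3Δ arrays. The peak at 1939201 was at 0.90 and 0.89 against 0.59 and 0.60, in that order. At these last 2 the wild-type arrays agreed within 0.02 and the difference was about -0.3 in both series. Over the arm, 2 peaks were higher in both labelled fft3Δ arrays (7.41%, background 11.3%) and 7 were lower in both (25.9%, background 30.7%).

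Around the apex the wild-type arrays showed a sharper top. Over the 27 peaks, the mean within 1 kb of the apex was 0.77 and 0.73 on the wild-type arrays and 0.69 and 0.67 on the labelled fft3Δ arrays. Between 1 and 2 kb away it was 0.39 and 0.29 against 0.52 and 0.39. At 2 to 3 kb the levels were 0.41 and 0.36 on the wild-type arrays and 0.48 and 0.42 on the labelled fft3Δ arrays. The drop from apex to 2 to 3 kb was therefore 0.36 and 0.37 on the wild-type arrays and 0.21 and 0.26 on the labelled fft3Δ arrays, a difference of -0.13 without overlap, with -0.15 and -0.11 within the series (exact permutation test, two-sided, p = 0.33). By 8 to 10 kb from the apex, the groups differed by at most 0.02.

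At the 273 peaks elsewhere on the array the same drop differed by -0.11, close to the arm's value. It was smaller in labelled fft3Δ at 19 of the 27 arm peaks (70.4%) and at 188 of 272 others (69.1%). In Cy5 alone the difference had the other sign, 0.17. The input at arm peaks was higher in labelled fft3Δ by 0.06 in series 1 and by 0.63 in series 2, and its part in the difference was not tested. Without wild-type array 2 the difference was -0.12, and with normexp background correction it was -0.29.

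**Figure D5:**
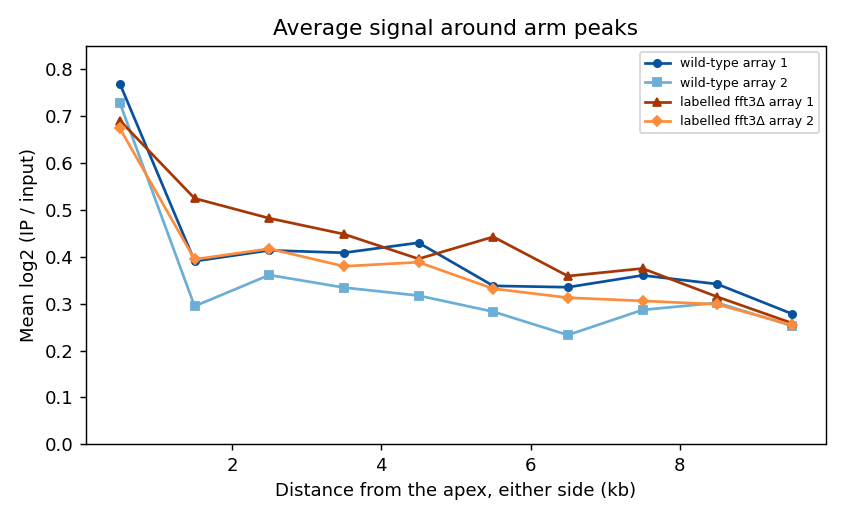
Mean log2 (IP / input) of the probes around the 27 arm peaks (vertical axis) against distance from the apex on either side in kb, in bins of 1 kb, one line per array. The 2 wild-type arrays are highest in the first bin, at 0.77 and 0.73, and all 4 lines come together at 0.25 to 0.28 by 10 kb.

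Set against other chromosome regions, the arm was lower in BrdU on every array. Its mean level differed by -0.23 ± 0.03 from the chromosome 2 left arm interior (699 windows), by -0.05 ± 0.03 from the chromosome 1 interior (2551 windows) and by -0.55 ± 0.05 from the chromosome 3 arms (989 windows), and was lower on 4 of 4 arrays in each case (SD over arrays). An exact sign-flip permutation test over the 4 arrays gave p = 0.125 for each of the 12 differences computed, also after adjustment, which is the smallest it allows. Windows above 0.5 were scarcer on the arm, by -12.9, -5.98 and -29.6 percentage points in the same order of regions. Windows below -1 were more common than on the chromosome 2 left arm and chromosome 3, by 1.97 and 8.18 points, and less common than on chromosome 1, by -1.89 points. The SD of the arm's windows differed from that of chromosome 1 by -0.09, so chromosome 1 varied more.

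Peaks were fewest on the arm, and steps over 5 windows on each side were most frequent there. It had 1.08 peaks per 100 kb, against 2.65 on the chromosome 2 left arm, 1.94 on chromosome 1 and 4.55 on chromosome 3. Its steps numbered 5.19 per Mb against 2.15, 3.33 and 1.01. The longest stretch without a peak was 627 kb on the arm and 261.9, 483.9 and 284.1 kb on the others, and the median spacing of peaks was 24 kb against 12.9, 17.7 and 12.6 kb. These counts come from the mean of the 4 arrays, give a single value per region and were not tested. The limit for a peak was the same in all regions, and the arm also had the lowest mean level of them. The part of the level in the peak counts was not tested. With 10 windows on each side the arm held 23.4% of the steps, near its 20.1% of the windows.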

How the data were processed

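BrdU-precipitated DNA (Cy5) and input DNA (Cy3) were measured on 4 arrays without dye swaps, so dye bias does not cancel. The deposited scanner files hold processed intensity values of each channel, background-subtracted and dye-normalized by Agilent Feature Extraction, version 12.0 on 3 arrays and 11.5 on wild-type array 2, per the file headers. A deposited log10 column, the log ratio of red to green per the file headers, served to check the direction. In the deposited series matrix each spot has an uncentred linear ratio, Cy5 over Cy3, with medians of 1.03 and 1.07 for wild type and 0.99 and 1.02 for labelled fft3Δ, within 0.013 (log2) of the scanner values. Flags for saturation, non-uniformity and signal well above background were taken as deposited (unit other).

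Control and non-uniform spots were left out. Ratios were put on a log2 scale and centred per array on the median, without loess or quantile normalization, and averaged in 2 kb windows of at least 3 probes and 50 kb blocks of at least 10 windows. Windows, blocks, peaks and steps were tested over the whole array with lmFit and eBayes of limma 3.58.1 (R 4.3.3), two-sided, with genotype as the only term. Files were read with data.table (version 1.17.8), and figures drawn with matplotlib 3.10.9. The window fit was tested on simulated data, with 50 of 6234 windows changed. It recovered 5 of the 50 at a change of 0.5, 23 at 1, 42 at 2 and 25 at -1, with 2 false calls each time. Values per array were compared by exact permutation. Peaks above the median plus 1 SD of the smoothed values below it were used, as 2 SDs left 0 on the arm and 12 on the array. The number of arrays limits the precision. Deviations of the arrays of series 1 and 2 correlated at r = 0.33 on the arm, with too few pairs to show a pairing. Alternatives were normexp with an offset of 50, loess within arrays, Cy5 alone, centring on the mode, probes well above background, the series matrix, the series as a block, each array left out, and other window, block, peak and step sizes.

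Named were the 5 highest and 5 lowest blocks, the 5 longest runs of each kind, the 8 tallest peaks, the 4 steepest steps each way, the 3 peaks and 3 windows with the largest moderated t in each direction and one sign in both series, and the items beside each threshold. Lists, regions and tests were chosen with earlier results of these data known.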

Additional observations from a re-analysis of the deposited data

How the results depend on the processing

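With few exceptions the counts of calls on the arm stayed at 0. The series as a replicate block gave 5 windows (0.399%, background 1.83%). Calls from fits with an array left out are not counted, since each leaves an array alone in its group. Without wild-type array 1, the window from 3976001 differed by 0.97 and the step at 3570001 by -0.50. With all arrays these differences were 0.65 and -0.19. The fit without wild-type array 1 takes its spread from the labelled fft3Δ arrays, with wild-type array 2 alone in its group. At 3570001 the step of wild-type array 2 was -0.66, against -1.28 to -1.14 on the others. The replicate block left the differences in mean level, peak height and SD as they were, at 0.01, -0.09 and 0.01. It changed no call of blocks, peaks or steps of the arm. The difference in mean level was -0.0076 with normexp and -0.075 centred on the mode, and ran from -0.0045 to 0.0264 with an array left out. The SD difference was -0.021 with normexp, 0.14 in Cy5 alone and -0.0276 to 0.0525 with an array left out, lowest without wild-type array 2. The peak height difference ran from -0.129 to -0.0499 with an array left out (without labelled fft3Δ array 1 and 2), was -0.34 with normexp, -0.18 centred on the mode and -0.03 with loess, and moved to 0.033 over 2 kb and 0.359 in Cy5 alone. The difference in the drop from apex to flank was 0.168 in Cy5 alone and -0.29 with normexp. That drop and the comparisons with other regions were added after the data were seen. In Cy5 alone the window from 1768001 differed by 0.052, the peak at 2439001 by 0.39 and the peak at 1939201 by 0.109; with normexp the peaks at 1954501 and 2802901 differed by -0.065 and -0.062. The cause of these turns was not tested. Of 26 named levels of blocks, peaks and steps, 25 kept their sign when centred on the mode, which lies 0.10 to 0.28 above the median, and 26 did under each other setting that was run on them. Their size depended on the scaling: 5 stayed within the spread between arrays with loess, 5 in Cy5 alone, 8 centred on the mode and 12 with normexp, and 4, 5, 5 and 0 of them moved by over 1.5 times, such as the peak at 2021701 from 0.90 to 0.43 with loess and 1.73 in Cy5 alone. The arm's level relative to chromosome 1 was -0.02 with loess and -0.09 in Cy5 alone, against -0.05. No peak height could be had at 2 SDs, which left 0 arm peaks. Steps over 10 windows numbered 11 of 47. All arm probes were well above background, the median Cy3 signal being 17.3 to 217 times its background.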
